A study of Schizosaccharomyces pombe with 15 samples.

Results

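This account covers 8 fission yeast genes that bring ammonium into the cell, fix it into glutamine and glutamate, or regulate that step, out of 5886 genes with enough tags to be tested. They were picked by gene identifier with earlier results of these data known, and all 8 passed the filter on low counts. They are the ammonium transporter genes amt1 (SPCPB1C11.01), amt2 (SPAC664.14) and amt3 (SPAC2E1P3.02c), the glutamine synthetase gene gln1 (SPAC23H4.06), the glutamate synthase gene glt1 (SPAPB1E7.07), the glutamate dehydrogenase genes gdh1 (SPCC622.12c) and gdh2 (SPCC132.04c), and gaf1 (SPCC1902.01), which encodes a GATA-type transcription factor.

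The study profiled transcription start sites (TSSs) of wild-type Schizosaccharomyces pombe with CAGE (cap analysis of gene expression), a method that reads a short tag from the capped 5′ end of each RNA. Levels are given as CPM, the tag count scaled to library size with TMM factors. Each tag is a single capped end, so CPM does not grow with gene length and levels can be set side by side between genes. All 15 libraries came from strain h-S 972, which carries a single mating type, grown in triplicate liquid cultures for each of 5 groups. The first group grew at 30 °C in EMM, a minimal medium whose nitrogen source is ammonium chloride, and the second was filtered into the same medium without ammonium chloride and held there for 16 h at 30 °C. The third grew at 30 °C in YES, a rich medium made from yeast extract. The other two were rich-medium cultures, written YES in one label and YEL in another, exposed for 15 min either to 39 °C or, at 30 °C, to 0.5 mM H2O2.

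Ammonium enters yeast cells through Amt/Mep-type transporters of the plasma membrane. Inside the cell, glutamine synthetase joins ammonium to glutamate, and glutamate synthase passes the amide of glutamine to 2-oxoglutarate to form glutamate; NADP-dependent glutamate dehydrogenase (Gdh1) makes glutamate from 2-oxoglutarate and ammonium directly, while the NAD-dependent enzyme (Gdh2) breaks glutamate down and releases ammonium. Gaf1 is known in fission yeast to enter the nucleus when the TORC1 kinase is inhibited or nitrogen is short, and GATA factors bind DNA at sites with a GATA core.

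The sequences before the main start sites differ in how many GATA cores they hold, and 3 are shown because they belong to the gene whose level varied most (amt1), to the glutamine synthetase gene and to a gene that varied little (gdh2). Each is the 300 bases before the main CAGE peak, 5′ to 3′ on the gene's own strand, read from the RefSeq genome of build ASM294v3. Capitals mark GATAA and also GATAG or TGACTCA, on either strand, so that TTATC is GATAA and CTATC is GATAG read on the other strand.
amt1, chrIII:2068679-2068978, plus strand: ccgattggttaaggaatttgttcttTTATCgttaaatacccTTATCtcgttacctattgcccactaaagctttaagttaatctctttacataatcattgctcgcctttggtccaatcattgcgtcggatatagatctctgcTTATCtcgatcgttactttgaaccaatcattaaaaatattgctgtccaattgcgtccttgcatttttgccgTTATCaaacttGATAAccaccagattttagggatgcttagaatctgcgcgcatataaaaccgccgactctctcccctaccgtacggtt
gln1, chrI:1598065-1598364, minus strand: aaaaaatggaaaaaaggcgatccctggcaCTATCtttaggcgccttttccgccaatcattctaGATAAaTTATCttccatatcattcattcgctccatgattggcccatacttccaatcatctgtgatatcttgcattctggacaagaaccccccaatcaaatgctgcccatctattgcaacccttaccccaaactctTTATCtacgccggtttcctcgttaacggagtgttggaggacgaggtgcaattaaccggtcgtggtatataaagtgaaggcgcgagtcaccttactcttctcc
gdh2, chrIII:1336176-1336475, minus strand: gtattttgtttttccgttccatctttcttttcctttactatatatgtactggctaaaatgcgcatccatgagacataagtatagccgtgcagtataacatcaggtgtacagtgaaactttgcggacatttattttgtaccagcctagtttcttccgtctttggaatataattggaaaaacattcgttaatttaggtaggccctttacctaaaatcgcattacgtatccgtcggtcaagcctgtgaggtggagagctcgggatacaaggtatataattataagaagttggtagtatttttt
The amt1 window holds 5 copies of GATAA, of which 2 continue to GATAAG, and the copies begin 275, 259, 159, 88 and 77 bases before the peak. At least 3 copies of GATAA were found in 7.06% of the 4870 windows of the same length before the main start sites of protein-coding genes, and at least 2 copies of GATAAG in 1.11%. The gln1 window holds 3 copies of GATAA, 237, 231 and 102 bases before the peak, and 1 of GATAG, while the gdh2 window has none of these letters. Among the other members, amt3 and gdh1 have 2 copies of GATAA and 1 of GATAG each, amt2 has 1 copy of GATAA, glt1 has 1 of each, and gaf1 has 2 copies of GATAG and no GATAA. The amt3 window lies partly in coding sequence, as its peak is 205 bp past the start codon. Before another amt3 peak, 75 bp past the start codon, the window holds 5 copies of GATAA or GATAG. At least 1 GATAA is common, occurring in 60.5% of windows. TGACTCA, the letters bound by the Gcn4 family in budding yeast, was found among the members before glt1 alone, and in 2.24% of all windows. A match is a run of letters and not a measured binding site.

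Library totals ran from 9665353 to 21760682 tags in genes. Marker genes moved as the labels say: the 3 heat markers hsp16, hsp104 and ssa1 all rose at 39 °C and the 3 oxidative markers ctt1, srx1 and gpx1 all rose with H2O2. Neither set was particular to its stress. All 3 oxidative markers were also called higher in heat, and 2 of the 3 heat markers with H2O2. Mean gpx1 was 501 CPM with H2O2 and 1596 in heat. The starved libraries stood apart in scale, with trimmed-mean (TMM) factors of 1.27 to 1.33 against 0.929 to 0.972 in EMM. With library totals in place of these factors the median log2 change over all genes moved from 0.04 to 0.49 in starvation and from −0.03 to −0.21 in heat, so changes in these comparisons are relative to the typical gene. Starvation also raised all 6 M-cell mating genes, whose summed level was 66.6 to 76.6 CPM in EMM and 1506 to 12803 in the starved libraries, while the 2 P-cell genes stayed at 6.57 to 9.60 CPM in sum in both groups, although map2 alone rose (log2 1.08). The part of this mating response in the changes below was not tested. In a bulk culture, more cells making an RNA and more of that RNA per cell cannot be told apart.

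**Figure D1:**
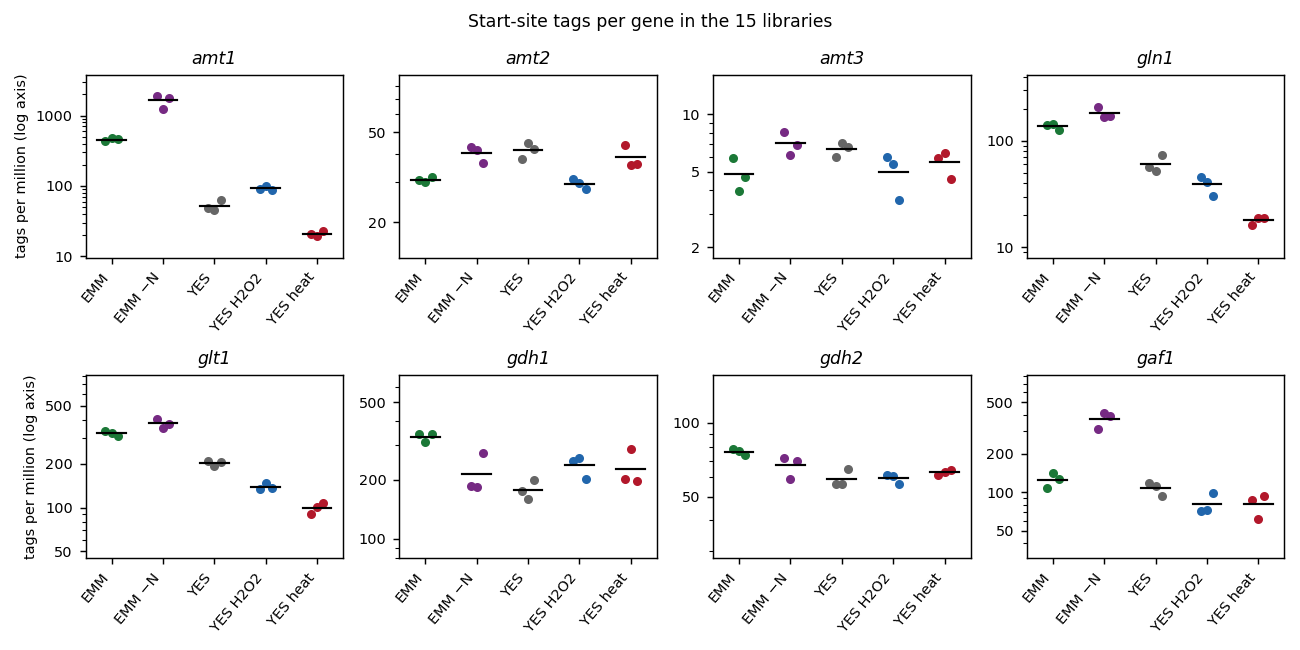
CPM (TMM-scaled, log axis) of each of the 8 genes in the 15 libraries, by group; each point is 1 library and each bar the mean of 3. EMM −N marks nitrogen starvation. For amt1 the 5 groups do not overlap, from 19.2 in heat to 1917 in starvation, whereas gdh2 stays between 56.3 and 78.3 in all libraries.

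The media differ in more than their nitrogen source. In EMM against YES, 6 of 8 members passed edgeR's quasi-likelihood test at an adjusted p under 0.05, 5 higher in EMM and 1 lower, where 5.95% of all genes were called higher and 7.24% lower. In starvation against EMM, 6 of 8 passed, 5 higher and 1 lower, where 35.7% of all genes were called higher and 32.9% lower, so that a call there is common; with library totals 7 members rose and none fell. With 1 library left out, 4 to 5 members passed in EMM against YES and 4 to 7 in starvation. The median log2 change of the members was 0.52 in EMM against YES and 0.40 in starvation, beside −0.00 and 0.04 over all genes.

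**Figure D2:**
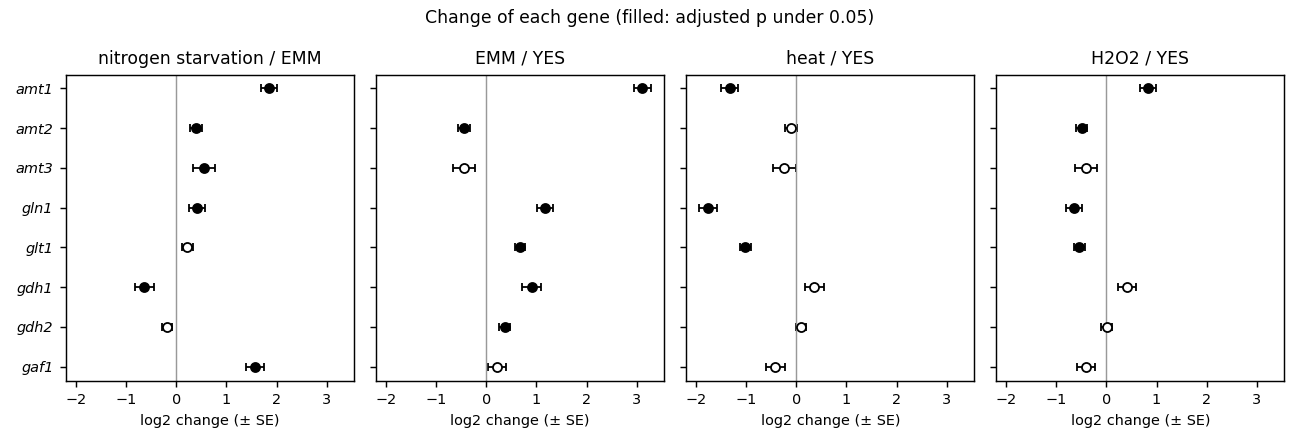
log2 change of each gene in 4 comparisons, each between 2 groups of 3 libraries; bars are standard errors and filled points have an adjusted p under 0.05 (edgeR). amt1 has the largest change of the 8 in both comparisons in EMM (3.11 against YES, 1.85 in starvation), and amt1 moves in opposite directions with heat (−1.33) and H2O2 (0.83).

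amt1 (chrIII:2068979-2071707, plus strand, a single coding exon) had the widest range of the 8 genes. Its level was 48.5, 45.7 and 63.2 CPM in the 3 YES libraries, 433, 473 and 458 in EMM, and 1917, 1259 and 1751 after nitrogen starvation. It was 91.6, 101 and 87.3 with H2O2 and 20.8, 19.2 and 22.6 in heat. All 5 groups were separate, in the order starvation, EMM, H2O2, YES, heat. amt1 was 8.65-fold higher in EMM than in YES (log2 3.11 ± 0.18 SE, adjusted p = 6.24e-09, edgeR), and 99.5% of the genes tested had a lower change in that comparison. Starvation raised it a further 3.61-fold (log2 1.85 ± 0.17, adjusted p = 1.66e-07, edgeR). Heat lowered it 2.52-fold (log2 −1.33 ± 0.17, adjusted p = 1.41e-05, edgeR), and H2O2 raised it 1.78-fold (log2 0.83 ± 0.16, adjusted p = 0.00166, edgeR).

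amt2 (chrI:1731069-1733268, plus strand) varied far less. It stood at 30.6, 30.0 and 31.7 CPM in EMM, 43.0, 41.6 and 36.4 in starvation, and 38.2, 44.9 and 42.0 in YES. With H2O2 it was 31.0, 29.9 and 27.9, and in heat 44.0, 35.9 and 36.2. The EMM and H2O2 groups were the low ones and overlapped each other, and the starved, YES and heat groups were higher and overlapped each other. amt2 rose in starvation (log2 0.39 ± 0.12, adjusted p = 0.00746, edgeR) and fell with H2O2 (log2 −0.50 ± 0.12, adjusted p = 0.00597, edgeR). It was also lower in EMM than in YES (log2 −0.44 ± 0.12, adjusted p = 0.0196, edgeR), the opposite direction to amt1, but this call was lost when any of 5 of the 6 libraries was left out, with adjusted p-values of 0.0521 to 0.0866.

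amt3 (chrI:2924692-2926446, minus strand) was the lowest of the 8, at 3.53 to 8.10 CPM in the 15 libraries, and its mean level exceeded that of 18.4% of the genes tested. Its 3 starved libraries, at 8.10, 6.13 and 6.88, lay above its 3 EMM libraries, at 5.86, 3.97 and 4.68, and the change was small (log2 0.55 ± 0.22, adjusted p = 0.0339, edgeR). The call was lost with limma on the authors' log2 values (log2 0.16, adjusted p = 0.553), with only the 6 libraries in the fit (adjusted p = 0.0572), and without EMM replicate 2 or 3 or starved replicate 1 (adjusted p = 0.0848 to 0.136). No other amt3 comparison passed.

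Taking the raw tags of the family together, amt1 made up 46.9% to 56.5% of all amt tags in the YES libraries, 92.2% to 93.3% in EMM and 96.3% to 97.6% in starvation. H2O2 libraries had 71.2% to 74.1%, and in heat amt1 fell to 29.4% to 35.7%, below amt2 at 57.0% to 62.2%. The leading transporter transcript therefore differed between groups, and the 5 groups of amt1 shares did not overlap. The summed level of the family was 61.3 to 70.8 CPM in heat and 1307 to 1968 in starvation.

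Glutamine synthetase and glutamate synthase, which act as a cycle, had the most similar profiles among the members (Pearson r = 0.99 over the 15 libraries, log2 scale), as a description of libraries that share groups. gln1 (chrI:1596073-1598064, minus strand) was at 57.0, 51.9 and 73.9 CPM in YES, 142, 143 and 127 in EMM, and 209, 169 and 171 in starvation. It was 45.9, 40.8 and 30.2 with H2O2 and 16.1, 19.0 and 18.7 in heat. The 5 groups were separate, from starvation at the top through EMM, YES and H2O2 to heat. gln1 was 2.25-fold higher in EMM than in YES (log2 1.17 ± 0.17, adjusted p = 1.19e-04, edgeR). Heat lowered it 3.39-fold (log2 −1.76 ± 0.17, adjusted p = 9.00e-07, edgeR), a change lower than that of all but 1.26% of genes. The fall with H2O2 was smaller (log2 −0.65 ± 0.17, adjusted p = 0.0104, edgeR), and was no longer called without YES replicate 3 (log2 −0.45, adjusted p = 0.0922). The rise in starvation (log2 0.42 ± 0.16, adjusted p = 0.0332, edgeR) was lost without any 1 of the 3 EMM libraries or starved replicate 1, with adjusted p-values of 0.0523 to 0.116.

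glt1 (chrI:3302825-3310369, plus strand) followed the same order of groups at higher levels. It was at 209, 194 and 206 CPM in YES, 337, 324 and 310 in EMM, and 407, 351 and 375 in starvation. With H2O2 it was at 134, 147 and 137, and in heat at 90.3, 101 and 108. All 5 groups were separate. glt1 was 1.59-fold higher in EMM than in YES (log2 0.67 ± 0.11, adjusted p = 4.19e-04, edgeR), and it fell in heat (log2 −1.02 ± 0.11, adjusted p = 2.40e-06, edgeR) and with H2O2 (log2 −0.54 ± 0.11, adjusted p = 0.00181, edgeR). The starvation difference did not pass (log2 0.22 ± 0.11, adjusted p = 0.0809, edgeR), although it did with DESeq2 (log2 0.25, adjusted p = 0.0149), with library totals (log2 0.68, adjusted p = 3.94e-05) and with limma on the authors' log2 values (log2 0.77, adjusted p = 1.70e-05). The number of glt1 tags per gln1 tag was 2.79 to 3.74 in YES, 2.92 to 4.53 with H2O2 and 5.33 to 5.77 in heat, and in minimal medium 2.26 to 2.45 in EMM and 1.94 to 2.19 in starvation.

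The glutamate dehydrogenase genes did not share the fall in heat. gdh1 (chrIII:1419131-1421203, minus strand), for the enzyme that makes glutamate, was at 174, 159 and 201 CPM in YES and 342, 313 and 344 in EMM. It was at 185, 183 and 274 in starvation, 250, 258 and 203 with H2O2 and 201, 287 and 197 in heat. EMM stood above all other groups without overlap; the H2O2 libraries lay just above the YES libraries, and the starved and heat libraries overlapped both. gdh1 was 1.87-fold higher in EMM than in YES (log2 0.90 ± 0.18, adjusted p = 0.00329, edgeR). Relative to the typical gene it fell in starvation (log2 −0.64 ± 0.18, adjusted p = 0.00639, edgeR), but not with library totals (log2 −0.18, adjusted p = 0.434) or on the authors' log2 values (log2 −0.06, adjusted p = 0.820, limma). Neither heat (log2 0.36 ± 0.18, adjusted p = 0.134, edgeR) nor H2O2 (log2 0.41 ± 0.18, adjusted p = 0.142, edgeR) passed.

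gdh2 (chrIII:1332569-1336175, minus strand), for the enzyme that breaks glutamate down, had the narrowest range of the 8 in proportion to its level, 56.3 to 78.3 CPM in all 15 libraries. It was at 78.3, 76.5 and 73.8 in EMM and 56.3, 56.5 and 64.6 in YES. That difference passed narrowly (log2 0.36 ± 0.11, adjusted p = 0.0330, edgeR), and was lost with library totals (adjusted p = 0.0878), with only the 6 libraries in the fit (adjusted p = 0.0544), on the authors' log2 values (adjusted p = 0.0515, limma) and when any of 5 of the 6 libraries was left out (adjusted p = 0.0712 to 0.128). Its log2 change was −0.18 ± 0.10 in starvation, which did not pass (adjusted p = 0.131, edgeR), while with library totals it turned to 0.27 and was called (adjusted p = 0.0498). The changes of 0.09 in heat and 0.01 with H2O2 did not pass.

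The ratio of glutamine synthetase to glutamate dehydrogenase tags moved with the treatments. gln1 tags per gdh1 tag were 0.326 to 0.368 in YES, 0.368 to 0.457 in EMM and 0.623 to 1.13 in starvation. They fell to 0.149 to 0.183 with H2O2 and to 0.0663 to 0.0950 in heat. The starved libraries were the highest and the heat libraries the lowest, with no overlap, while YES and EMM overlapped at 0.368.

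The GATA factor gene gaf1 (chrIII:1665533-1669690, minus strand) rose in starvation, and its difference between media did not pass. It was at 108, 141 and 127 CPM in EMM, 312, 411 and 396 in starvation, and 119, 112 and 93.4 in YES. With H2O2 it was at 71.1, 72.5 and 99.3, and in heat at 86.8, 61.7 and 93.5. The starved group stood clear of all others; EMM lay above the H2O2 and heat groups, and YES overlapped all 3. Starvation raised gaf1 2.97-fold (log2 1.57 ± 0.19, adjusted p = 2.89e-06, edgeR), while EMM against YES did not pass (log2 0.22 ± 0.18, adjusted p = 0.531, edgeR). Heat (log2 −0.42 ± 0.18, adjusted p = 0.0805) and H2O2 (log2 −0.41 ± 0.18, adjusted p = 0.141) did not pass in edgeR, although heat did with library totals (log2 −0.60, adjusted p = 0.0145) and H2O2 did without H2O2 replicate 3 (adjusted p = 0.0472).

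In the 2 short stresses, which share the YES libraries as control, 3 of 8 members passed in heat, all lower (amt1, gln1 and glt1), where 22.2% of all genes were called higher and 20.1% lower. With H2O2, 4 of 8 passed, amt1 higher and amt2, gln1 and glt1 lower, where 11.3% of all genes were called higher and 8.78% lower. Compared directly, 4 of 8 differed between heat and H2O2, 1 higher and 3 lower in heat, where 15.7% of all genes were higher and 12.0% lower. amt1 was 4.47-fold lower in heat than with H2O2 (log2 −2.16 ± 0.17, adjusted p = 1.70e-07, edgeR), gln1 was 2.17-fold lower (log2 −1.11 ± 0.17, adjusted p = 1.36e-04, edgeR) and glt1 1.39-fold lower (log2 −0.48 ± 0.11, adjusted p = 0.00392, edgeR). amt2 was 1.31-fold higher (log2 0.39 ± 0.12, adjusted p = 0.0219, edgeR), a call that library totals (log2 0.20, adjusted p = 0.284), the fit of only the 6 libraries (adjusted p = 0.0851) and the removal of heat replicate 1 or of H2O2 replicate 2 or 3 (adjusted p = 0.0573 to 0.114) did not keep.

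The 8 genes held 34 clusters of start sites, and 15 of them took at least 10% of their gene's tags in at least 1 group. gdh1, gdh2, glt1 and gaf1 each had 1 such cluster, whereas amt1 and amt2 had 2, gln1 had 3 and amt3 had 4. The 30 bases around 9 peaks of the last 4 genes are shown because these genes shifted between sites, leaving out the amt3 peaks farthest into its coding exon; they run from 20 bases before the peak base to 9 after it, and capitals mark the bases at −1 and +1. Most yeast start sites have a pyrimidine followed by a purine there, as did 85.1% of the 13003 clusters.
amt1, 827 bp before the start codon, chrIII:2068959-2068988, plus strand: ctctcccctaccgtacggtTGagacgcgga
amt1, inside the coding exon, chrIII:2070825-2070854, plus strand: tgctgaacatggtgttggtGGtatggttgg
amt2, 1232 bp before, chrI:1730375-1730404, plus strand: gtgaaagctgcttactattCAactttaaac
amt2, 558 bp before, chrI:1731049-1731078, plus strand: tttcggtgagcgtcaaacaCAacttcttcc
amt3, 75 bp past, chrI:2926362-2926391, minus strand: ctgtaacagaactgtttccCAacgaatact
amt3, 205 bp past, chrI:2926232-2926261, minus strand: ggctctctcaatattgactCAgtcgttttt
gln1, 564 bp before, chrI:1598126-1598155, minus strand: ggtttcctcgttaacggagTGttggaggac
gln1, 493 bp before, chrI:1598055-1598084, minus strand: gagtcaccttactcttctcCAaataacatt
gln1, 60 bp before, chrI:1597622-1597651, minus strand: ttttcaaatttccgttctcTAgactttcgt
All but 1 of these peaks sit on a pyrimidine-purine step, the exception being the site inside the amt1 coding exon, which has GG.

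gln1 shifted its start sites in heat, away from the annotated 5′ end and toward a site near the coding sequence. The main cluster (chrI:1597953-1598086), whose peak is the annotated 5′ end, was at 39.1, 35.2 and 48.1 CPM in YES and 3.83, 3.94 and 4.66 in heat. The cluster nearest the coding sequence (chrI:1597023-1597928) was at 7.18, 6.98 and 9.74 in YES and 10.2, 11.8 and 11.4 in heat. The main cluster thus lost most of its tags while the near one did not. The main cluster fell 3.30 ± 0.21 on the log2 scale (adjusted p = 7.07e-10, edgeR over 13003 clusters, of which 33.6% passed), and the small cluster 71 bp upstream of it fell by 2.76 ± 0.28 (adjusted p = 3.24e-07). The near cluster changed by 0.47 ± 0.18, which did not pass (adjusted p = 0.0576, edgeR), although it did without YES replicate 3 (adjusted p = 0.0217) and among clusters with at least 10 CPM in 3 libraries (adjusted p = 0.0258).

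**Figure D3:**
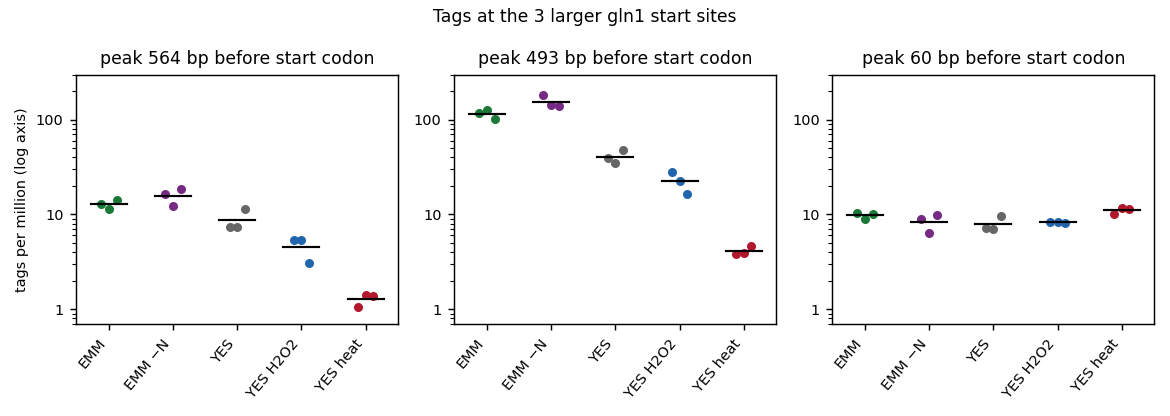
CPM (log axis) at 3 start-site clusters of gln1, named by the distance of the peak from the start codon; each point is 1 library and each bar the mean of 3. Both upstream clusters fall from YES to heat, the main one from a mean of 40.8 to 4.15. The cluster 60 bp before the start codon stays between 6.42 and 11.8 over all groups.

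As a share of gln1 tags, the near cluster was 12.8%, 13.6% and 13.4% in YES and 63.9%, 63.6% and 61.7% in heat, and with H2O2 it was 18.6%, 21.1% and 27.3%. The 3 groups do not overlap. The test of start-site usage was passed in heat (adjusted p = 6.35e-11, edgeR diffSpliceDGE, where 32.4% of 1661 genes passed) and missed with H2O2 (adjusted p = 0.0546, background 12.2%), where it passed without H2O2 replicate 1 (adjusted p = 0.0301). Among 1661 protein-coding genes with a site downstream of the main one and at least 10 CPM in both groups, the share of downstream tags changed in heat by a median of 0.150 percentage points. For gln1 it rose by 50.9 points, and 10 genes had a larger rise. The near cluster is broad: 357 of its bases lie before the start codon and 549 inside the coding sequence, and its tags were not split between these parts. In EMM against YES the usage test also passed (adjusted p = 0.00183, edgeR diffSpliceDGE, background 18.5%), with the main cluster higher in EMM (log2 1.50 ± 0.18, adjusted p = 8.93e-06, edgeR, where 13.7% of clusters passed) and the near one little changed in level (log2 0.29 ± 0.18, adjusted p = 0.361).

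**Figure D4:**
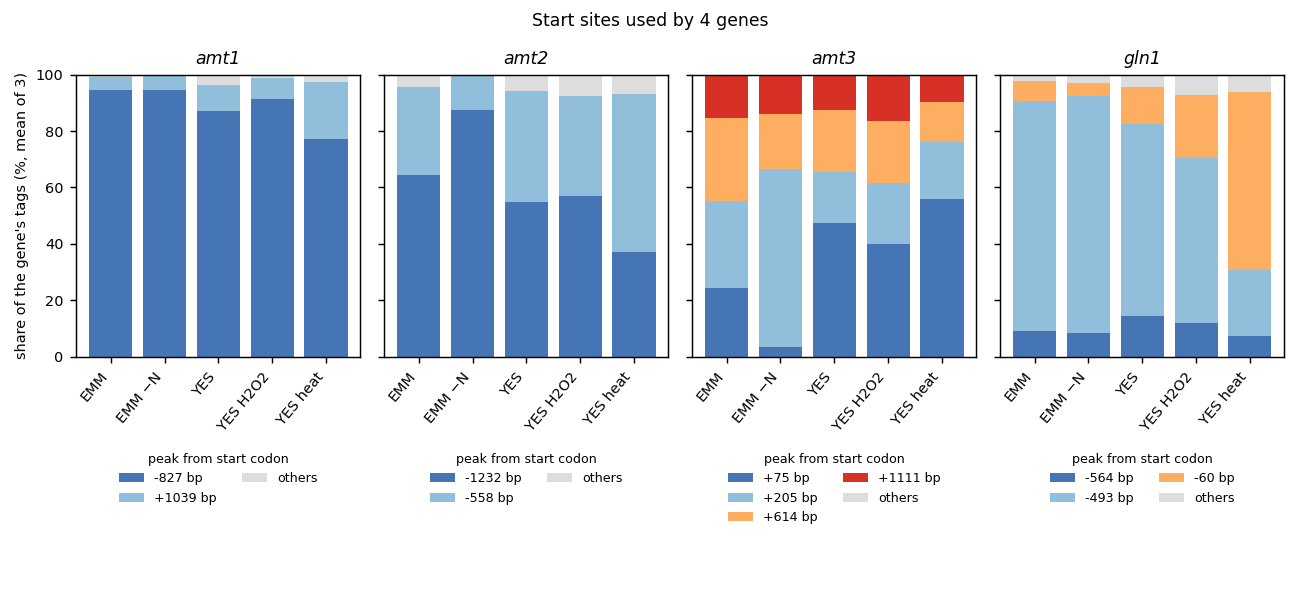
Share of each gene's tags (percent, mean of 3 libraries) at each start-site cluster with at least 10% in 1 group, for amt1, amt2, amt3 and gln1; the legend gives the distance of the peak from the start codon, negative for upstream. In gln1 the cluster 60 bp upstream goes from 13.2% in YES to 63.1% in heat, in amt2 the cluster 1232 bp upstream goes from 64.3% in EMM to 87.5% in starvation, and in amt3 the cluster 75 bp inside the coding exon goes from 24.3% to 3.4%.

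amt2 used a pair of start-site clusters, with peaks 674 bp apart, that moved in opposite directions in starvation. Its upstream cluster (chrI:1729953-1730931), which lies before the annotated gene, was at 20.9, 19.5 and 20.8 CPM in EMM and 35.9, 36.3 and 33.9 in starvation. The cluster at the annotated 5′ end (chrI:1730952-1731125) went from 9.33, 10.0 and 10.4 to 7.05, 5.21 and 2.60. Neither pair of groups overlaps. In starvation the upstream cluster rose by log2 0.79 ± 0.13 (adjusted p = 3.75e-05, edgeR, where 66.9% of clusters passed) and the annotated one fell by 1.01 ± 0.28 (adjusted p = 0.00441), a fall that was not called with library totals (log2 −0.53, adjusted p = 0.110). The usage test passed (adjusted p = 8.21e-06, edgeR diffSpliceDGE, background 59.7%). In heat the upstream cluster fell (log2 −0.71 ± 0.14, adjusted p = 4.41e-04, edgeR), so that its share was 30.5%, 37.2% and 43.4% against 54.4%, 49.4% and 61.2% in YES, while the usage test missed (adjusted p = 0.0634), passing without YES replicate 2 (adjusted p = 0.0450). The rise of the annotated site in heat did not pass (log2 0.41 ± 0.27, adjusted p = 0.274, edgeR). With H2O2 both sites were lower, by log2 −0.47 ± 0.13 upstream (adjusted p = 0.0210, edgeR) and −0.66 ± 0.27 at the annotated end, which did not pass (adjusted p = 0.126). Neither site passed in EMM against YES (log2 −0.15 and −0.70). Transcripts from the peak of the upstream cluster would carry a leader of 1232 bases with 5 ATG triplets. This cluster is 979 bp wide, so its other starts would give longer or shorter leaders. Measured from the main peak, the median leader over 4710 genes was 98 bases. Those of amt1 (827), gaf1 (813), glt1 (805) and gln1 (493) were also among the 10.7% longer than 390 bases. The main gaf1 cluster (chrIII:1667808-1669741) is broad and reaches past the start codon into the coding sequence, so its starts do not share a single leader length.

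All 4 amt3 clusters had their peaks inside its single coding exon, 75, 205, 614 and 1111 bp past the annotated start codon, which is also the annotated 5′ end. In EMM the first was at 1.82, 1.10 and 0.767 CPM and the second at 1.75, 1.28 and 1.58. In starvation the first was at 0.157, 0.174 and 0.388 and the second at 5.16, 4.11 and 4.07. The first fell by 2.25 ± 0.44 on the log2 scale (adjusted p = 2.10e-04, edgeR) and the second rose by 1.53 ± 0.25 (adjusted p = 2.75e-05, edgeR), and the usage test passed (adjusted p = 2.41e-07, edgeR diffSpliceDGE). These levels rest on few tags, and starved values of the first cluster lie near the floor of 3 tags, which is 0.115 to 0.173 CPM in those libraries. A floor of this kind covers counting error only.

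Of the raw amt1 tags pooled over all groups, 94.1% came from the cluster at its annotated 5′ end, a pool in which the starved libraries weigh most. By group, the mean share of this cluster was 94.4% in EMM, 94.5% in starvation, 91.4% with H2O2, 87.2% in YES and 77.2% in heat. The broad cluster with its peak inside the amt1 coding exon (chrIII:2069630-2071335) held 10.2%, 9.3% and 7.9% of tags in YES, 19.5%, 19.7% and 20.6% in heat, and 6.3%, 3.3% and 4.2% in EMM. Of its bases, 176 lie before the start codon and 1494 inside the coding sequence, and its tags were not split between these parts. Heat was above YES and EMM below it. The usage test passed in heat (adjusted p = 0.00223, edgeR diffSpliceDGE) and in EMM against YES (adjusted p = 0.00394), the latter not without EMM replicate 2 (adjusted p = 0.0653). In CPM the coding cluster was at 4.90, 4.24 and 4.92 in YES and 4.03, 3.67 and 4.59 in heat, with no called change (log2 −0.20 ± 0.32, adjusted p = 0.689, edgeR), while the main site fell by 1.52 ± 0.17 (adjusted p = 1.50e-06, edgeR). Over the 1771 genes with a cluster peak in coding sequence, the median share of tags in such clusters was 4.17% in YES and 5.20% in heat. The share of amt1 tags downstream of its main site rose by 10.7 points in heat. Among the 1661 genes compared in this way for gln1, 111 had a larger rise than amt1.

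Neighbouring clusters within 500 bp were read on both strands, and not all of them are described. The antisense RNA SPNCRNA.758, which overlaps the 3′ end of amt2, was seen almost only in heat: its clusters at chrI:1733028-1733134 and chrI:1733198-1733330 had 27, 35 and 65 tags and 43, 72 and 67 tags in the 3 heat libraries, and 0 to 3 tags in each YES library. Both rises passed (adjusted p = 7.36e-07 and 7.83e-07, edgeR). SPNCRNA.859, antisense to amt3, had more tags than amt3 itself, with its main cluster at 12.5, 11.8 and 9.45 CPM in EMM and 20.9, 19.6 and 19.6 in starvation (log2 0.84 ± 0.16, adjusted p = 1.66e-04, edgeR). Beside gln1, the divergent gene SPAC23H4.05c rose in starvation at its cluster of chrI:1598366-1598615 (log2 1.41 ± 0.16, adjusted p = 6.40e-07, edgeR) and fell in heat (log2 −1.64 ± 0.20, adjusted p = 2.21e-06), the same directions as gln1. That cluster did not pass in EMM against YES, where gln1 was higher (log2 0.10 ± 0.17 for the cluster, adjusted p = 0.777, edgeR), and SPAC23H4.05c as a whole was lower (log2 −0.69 ± 0.16, adjusted p = 0.00763, edgeR). Beside gaf1, an opposite-strand cluster assigned to no gene (chrIII:1670106-1670232) fell in starvation (log2 −1.81 ± 0.22, adjusted p = 8.86e-07, edgeR), where gaf1 rose. Past the 3′ end of amt3, a same-strand cluster (chrI:2924138-2924325) was higher in EMM than in YES (log2 4.30 ± 0.45, adjusted p = 1.38e-06, edgeR). Tags carry a strand, so sense and antisense sites are counted apart.

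By profile over the 15 libraries (Pearson r of log2 values, among genes with a mean of at least 10 CPM), the genes most like amt1 were ymc1 and put4, both at 0.98; put4 encodes a proline transporter. Those most like gaf1 were efc25 (0.99) and bgs1 (0.98), the latter encoding a glucan synthase subunit, and mae1, the malate transporter gene, was the one most like glt1 (0.98). gln1 was most like pob1 and fmo1 (both 0.97). The other members had weaker matches, with gdh2 at 0.90 to mic19, amt3 at 0.84 to psk1, amt2 at 0.83 to swc2, and gdh1 at 0.80 to nce103 and thi4. Among the members, amt1 was close to gln1 (0.93), glt1 (0.91) and gaf1 (0.84). These values describe libraries that share groups.

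A further list held genes of pathways that use the nitrogen of glutamine, glutamate and aspartate, and genes that supply 2-oxoglutarate. Not every enzyme in it handles that nitrogen itself. Of its 18 measured genes, 12 fell and 1 rose in starvation, where 32.9% of all genes were called lower and 35.7% higher. Their median log2 change was −0.80 against 0.04 for all genes. With library totals 7 fell and 3 rose, with medians of −0.35 and 0.49, and on the authors' log2 values 7 fell and 4 rose, with a median of −0.17. The largest falls were those of ura3, for dihydroorotate dehydrogenase of pyrimidine synthesis (log2 −1.83 ± 0.29, adjusted p = 4.54e-05, edgeR), and of the histidine genes his7 (−1.73 ± 0.19, adjusted p = 1.14e-06) and his4 (−1.42 ± 0.20, adjusted p = 1.40e-05). The gene that rose was arg4, for the arginine-specific carbamoyl-phosphate synthase (log2 0.84 ± 0.20, adjusted p = 0.00174, edgeR). In EMM against YES only idp1, for an isocitrate dehydrogenase, which supplies 2-oxoglutarate, was called in this list (log2 0.82 ± 0.14, adjusted p = 4.85e-04, edgeR). In heat 7 fell and 2 rose, or 8 and 1 with library totals, where 20.1% of all genes were called lower and 22.2% higher. The falls were led by cts1, for CTP synthase (log2 −1.75 ± 0.32, adjusted p = 3.90e-04, edgeR), and ade4, for the first enzyme of purine synthesis (−0.91 ± 0.16, adjusted p = 3.28e-04). The risers were idh2 (0.67 ± 0.14, adjusted p = 0.00154) and his7 (0.61 ± 0.18, adjusted p = 0.0144). With H2O2 the aspartate aminotransferase gene maa1 rose (0.50 ± 0.14, adjusted p = 0.0182) and ura3 fell (−0.93 ± 0.28, adjusted p = 0.0272).

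Of the genes for uptake and breakdown of other nitrogen sources, 17 of 27 listed were measured. In starvation 14 rose and 3 fell, where 35.7% of all genes were called higher and 32.9% lower, with a median log2 change of 2.07 against 0.04 for all genes. The largest rises were those of isp6, for a vacuolar serine protease (log2 4.21 ± 0.35, adjusted p = 8.46e-08, edgeR), isp7, for a 2-oxoglutarate-dependent oxygenase (3.54 ± 0.21, adjusted p = 2.91e-09), and isp5, for an amino acid transporter (3.17 ± 0.20, adjusted p = 5.72e-09). The 3 that fell were the arginase gene aru1 (−1.52 ± 0.20, adjusted p = 1.02e-05), put2 of proline breakdown (−1.06 ± 0.13, adjusted p = 6.02e-06) and ure4 of urease assembly (−0.96 ± 0.16, adjusted p = 6.93e-05). In EMM against YES, 8 rose and 4 fell, where 5.95% of all genes were called higher and 7.24% lower. isp5 went from a mean of 5.92 CPM in YES to 235 in EMM (log2 5.34 ± 0.24, adjusted p = 4.61e-10, edgeR) and put4 from 37.2 to 525 (3.81 ± 0.26, adjusted p = 3.98e-08). SPAC1039.08, annotated as a serine acetyltransferase, also rose (2.09 ± 0.28, adjusted p = 6.04e-05), whereas aru1 (−1.76 ± 0.20, adjusted p = 1.73e-05), the peptide transporter gene ptr2 (−1.48 ± 0.46, adjusted p = 0.0454) and the arginase gene car1 (−1.16 ± 0.13, adjusted p = 1.57e-05) fell.

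In heat 2 of these genes rose and 6 fell, where 22.2% of all genes were called higher and 20.1% lower. isp6 rose (log2 1.45 ± 0.33, adjusted p = 0.00206, edgeR) and so did SPBC1683.12, annotated as a nicotinic acid transporter (0.88 ± 0.16, adjusted p = 4.77e-04), while isp7 (−0.74 ± 0.22, adjusted p = 0.0116), isp5 (−0.73 ± 0.24, adjusted p = 0.0217) and ure4 (−0.56 ± 0.16, adjusted p = 0.0125) were the largest falls. With H2O2, 5 rose and none fell in edgeR, DESeq2, limma on the authors' values or the library-total fit, where edgeR called 11.3% of all genes higher and 8.78% lower. The rises were led by car1 (1.27 ± 0.13, adjusted p = 4.44e-06), isp6 (1.19 ± 0.32, adjusted p = 0.0153) and isp7 (1.05 ± 0.21, adjusted p = 0.00146). Directly compared, isp7 was lower in heat than with H2O2 (−1.80 ± 0.21, adjusted p = 1.11e-05), as amt1 was.

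Among 20 measured genes for other GATA factors and for nitrogen signalling, 8 rose and 2 fell in starvation, where 35.7% of all genes were called higher and 32.9% lower, so the count of rises is near that of any genes. With library totals 14 rose and none fell. mei2, for a meiotic RNA-binding protein (log2 5.52 ± 0.30, adjusted p = 1.01e-09, edgeR), ste11, for the transcription factor of mating (2.92 ± 0.18, adjusted p = 4.28e-09), and fep1, for the iron-sensing GATA factor (2.53 ± 0.36, adjusted p = 1.98e-05), rose the most. npr2, for a subunit of a TORC1-inhibiting complex (−0.62 ± 0.11, adjusted p = 1.09e-04), and ssp2, for the AMPK catalytic subunit (−0.61 ± 0.11, adjusted p = 2.37e-04), fell. In EMM against YES only mei2 was called (2.11 ± 0.26, adjusted p = 3.14e-05), and gaf1, given above, was not. In heat 4 rose and 3 fell, or 3 and 4 with library totals, shares near those of all genes (22.2% higher and 20.1% lower). gtr2, for a Rag GTPase (0.88 ± 0.14, adjusted p = 1.26e-04), sds23 (0.71 ± 0.16, adjusted p = 0.00209) and the eIF2α kinase gene gcn2 (0.58 ± 0.11, adjusted p = 5.65e-04) rose the most, while mei2 (−2.06 ± 0.28, adjusted p = 2.30e-05) and the GATA-type genes fil1 (−1.60 ± 0.25, adjusted p = 9.23e-05) and ams2 (−1.19 ± 0.26, adjusted p = 0.00166) fell. With H2O2 3 rose and 3 fell, where 11.3% of all genes were called higher and 8.78% lower, with fil1 among the genes of the list that fell (−1.12 ± 0.24, adjusted p = 0.00295).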

How the data were processed

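CAGE tags were measured in 15 libraries, 3 per group. The authors deposited whole-number counts per gene and per start-site cluster, log2 values per gene, and cluster positions with a pooled mean CPM. The submitters' processing notes name CASAVA 1.6, Bowtie 0.12.7 and build ASM294v2; clustering, counting and the scaling of the log2 values are not given in the sources used here. Sequences and annotation are RefSeq's, of build ASM294v3. In that sequence 85.1% of 13003 cluster peaks fell on a pyrimidine-purine step, against 4.71% and 2.84% for positions 1 base to either side, and no cluster passed a chromosome end.

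Counts were fitted with edgeR 4.0.16 (quasi-likelihood, robust, TMM, filterByExpr) over all 15 libraries at once, and Benjamini-Hochberg adjusted over 5886 genes or 13003 clusters, with 0.05 as threshold. Each gene took the run of neighbouring same-strand clusters whose counts sum to its own in every library, found for 5875 genes. Start-site usage was tested with diffSpliceDGE; a cluster entered where some group had 10% or more of that gene's tags in it. DESeq2 1.42.0 and limma 3.58.1 on the authors' log2 values were alternatives. On simulated counts for nitrogen starvation against EMM over 5857 genes, the gene test called 100% of changes of 2 on the log2 scale and 95% of changes of 1, with 1.02% false calls. The simulation changed few genes, as many up as down and all above a minimum level. It gave all genes the same spread and had no shift of the typical gene. Its share of false calls therefore does not carry over to the real starvation comparison. Pairs of replicates differed beyond sampling noise, so none was merged.

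The 8 genes and the other lists were chosen with earlier results of these data known. From each other list, up to 3 of the largest called rises and falls per comparison whose groups do not overlap were named. Symbols were matched through RefSeq, and genes of the lists that did not match or were not tested were left out. Cultures were triplicate per the labels, and p-values measure the spread between them.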

Additional observations from a re-analysis of the deposited data

How the results depend on the processing

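Over the 40 tests of members, 275 results from other settings, leaving the minimum change aside, kept direction and side of the threshold in 253 cases; 10 lost the call, 5 gained it and 7 changed sign. Leaving out 1 library gave 240 results, of which 207 did so. The sign changes were all in values not called in the main setting: with library totals amt3 (−0.00843) and gdh2 (−0.11) in heat against H2O2, and gdh2 in heat against YES (−0.0939) and in starvation (0.27, adjusted p = 0.0498); with limma on the authors' log2 values gdh2 in starvation (0.0116); with DESeq2 gdh2 with H2O2 (−0.00653) and gaf1 in heat against H2O2 (0.00362). Without 1 library, heat against H2O2 ran from −0.0267 to 0.32 for amt3, −0.13 to 0.17 for gaf1 and −0.25 to 0.0428 for gdh1, and gdh2 with H2O2 from −0.0275 to 0.11. The amt3 cluster 614 bp past the start codon, −0.08 in starvation, was 0.40 with library totals and −0.27 to 0.16 without 1 library. Requiring a log2 change above 1 left 1438 genes in starvation, 176 in EMM against YES, 494 in heat, 183 with H2O2 and 309 in heat against H2O2, and 2, 1, 1, 0 and 1 members; a higher bar calls fewer by construction. Testing only clusters with at least 10 CPM in 3 libraries called 3743, 859, 2397 and 1235 in the first 4 comparisons, from fewer clusters. Replicate numbers showed no sign of pairing the libraries: deviations of same-numbered libraries correlated from −0.39 to 0.53 over 30 pairs, 10 of them over 0.1. Those of differently numbered libraries correlated from −0.63 to 0.48 over 60 pairs, 22 of them over 0.1. A replicate block called 3978, 716, 2402, 1102 and 1522 genes and 6, 5, 3, 4 and 4 members, losing gdh2 in EMM against YES (adjusted p = 0.0533). Depth limits amt3 and its sites most.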
